A study of Rattus norvegicus with 3 samples.

Results

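Messenger RNAs for the nuclear RNA polymerases and for the general transcription factors that place them at promoters were examined in rat blood platelets, which have no nucleus. The set holds every named gene of the array whose symbol begins with Polr1, Polr2 or Polr3, with Gtf2 or Gtf3, or with Taf followed by a digit, and Tbp. It came to 67 genes, each measured by 1 feature, of 15037 named genes. F344 rats, which are inbred, gave the platelets, and these were loaded outside the body with sorafenib or lenvatinib, inhibitors of several receptor kinases, at 10 µg for 30 minutes at 37 °C, and then washed. Control platelets were made from the same draw of blood, 3 mL from each of 5 rats. The protocols used here do not say whether they were incubated and washed alike, so drug and handling cannot be told apart. Suspensions from the 5 rats were pooled within each group and hybridised to 1 array per group, so no difference below has a replicate check, an error or a p-value.

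RNA polymerase I transcribes ribosomal RNA genes, polymerase II messenger RNA genes and polymerase III transfer RNA and other short RNA genes. Each is built from subunits of its own and from subunits that it shares with the others. The general factors recognise the promoter, open the DNA and bring in the polymerase, and the TATA-binding protein, Tbp, takes part in initiation by all of them. Platelets cannot transcribe nuclear genes, and the transcripts they carry come mainly from the megakaryocyte. A lower signal in such a bulk sample can come from fewer cells of a type or from less RNA per cell, which cannot be told apart.

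Signals are given on a log2 scale, as read from the deposited values, and a difference of 1 is 2-fold. Where 3 signals of a gene follow each other, they are those of the control, sorafenib and lenvatinib arrays in that order. Features differ in how well they bind their transcript, so that levels are compared between arrays for 1 gene and not between genes. Quartiles were nearly equal over the arrays, with medians from 4.21 to 4.22 over all 23188 features. Genes with a mean signal of at least 4.25, the median of all named genes, were kept for counts, and 46 of the 67 passed. A stricter level, the 95th percentile of 1153 negative control features, was 7.69 and is called the background level. It was reached by 6 of the 67 genes (8.96%), against 13.0% of all named genes. The label of peripheral platelets was borne out by 13 measured platelet markers, of which 12, among them Pf4 and Itgb3, reached the background level, with mean signals over the list from 16.67 to 16.70. Of 16 leukocyte markers, Lyz2, at 15.13, 15.37 and 15.34, and S100a9, at 8.37, 7.97 and 7.88, reached it. The list's mean signal was 5.60 in the control array, 5.53 with sorafenib and 5.58 with lenvatinib, and does not show the high signal of Lyz2. Of 7 erythroid markers 5 reached the background level, among them Hba-a1 and Hbb, so that red-cell transcripts were present too. With lenvatinib 6 of the 7 were higher than in control (35.4% of all named genes were) and 0 lower (35.1%). The list's mean signal was 11.20 in control, 11.41 with sorafenib and 11.82 with lenvatinib.

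The 3 genes that differed 2-fold from control in at least 1 drug array were Tbp, Polr3b and Polr1c. The 250 bases before their annotated starts, from RefSeq on build GRCr8, are shown to set out the promoters of the genes on which the results turn. They lie at chr1:65136458-65136707 on the plus strand for Tbp, chr7:21030134-21030383 on the minus strand for Polr3b and chr9:22233068-22233317 on the plus strand for Polr1c, and each is written 5′ to 3′ along its gene. Capitals mark matches on either strand to any of 5 motifs. For the TATA box the letters searched were TATAAA, and for the CCAAT box those of its name. A GC box was searched as GGGCGG on both strands. The core of many sites for ETS factors was searched as CCGGAAG on both strands, and that of many sites for GATA factors as AGATAA. No match overlapped another in these windows.
Tbp: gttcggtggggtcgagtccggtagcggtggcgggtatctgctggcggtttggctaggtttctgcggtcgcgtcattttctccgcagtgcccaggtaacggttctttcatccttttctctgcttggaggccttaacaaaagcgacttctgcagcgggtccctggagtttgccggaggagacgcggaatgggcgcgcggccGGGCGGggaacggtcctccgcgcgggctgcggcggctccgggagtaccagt
Polr3b: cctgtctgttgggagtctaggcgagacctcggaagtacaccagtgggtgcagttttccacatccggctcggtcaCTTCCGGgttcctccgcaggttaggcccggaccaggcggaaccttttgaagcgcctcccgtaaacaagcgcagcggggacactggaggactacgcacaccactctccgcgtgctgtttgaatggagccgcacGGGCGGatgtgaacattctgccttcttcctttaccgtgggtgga
Polr1c: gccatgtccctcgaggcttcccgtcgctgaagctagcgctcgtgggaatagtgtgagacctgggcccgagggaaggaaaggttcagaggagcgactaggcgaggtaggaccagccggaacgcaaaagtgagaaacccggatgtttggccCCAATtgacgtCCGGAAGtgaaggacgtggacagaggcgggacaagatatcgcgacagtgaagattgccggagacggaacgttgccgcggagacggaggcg

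The Tbp promoter held 1 GC box and the Polr3b promoter 1 GC box and 1 ETS-type match, while that of Polr1c held 1 CCAAT box and 1 ETS-type match. None of these 3 windows held TATAAA. A promoter was found for 58 of the 67 genes. The ETS-type letters were in 32.8% of these windows, against 11.4% of 12435 windows of genes named on the array and 7.27% of all 33469 windows. GC boxes were in 62.1%, against 47.0% and 30.5%. TATAAA was in 6.90% (4 windows, those of Gtf3c6, Polr1f, Polr1has and Taf7l), against 11.2% and 12.9%, and CCAAT was in 31.0%, against 35.2% and 34.0%. AGATAA was in 0 of the 58 windows, against 8.34% and 10.3%. A match shows these letters in this window and no binding.

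The subunits used by more than 1 polymerase hold 4 of the 6 genes at the background level. These subunits have 2 genes shared by polymerases I and III and 5 shared by all. Of all named genes 13.0% reached that level. Features bind their transcripts differently, so this count does not rank the transcripts by amount. Polr1c and Polr1d, the paired assembly subunits of polymerases I and III, both reached the background level. The 3 signals of Polr1c (gene ID 301246) were 12.35, 12.75 and 13.35. It was the only gene of the set at the background level that was 2-fold from control, at a difference of 0.40 with sorafenib and 1.00 with lenvatinib. The lenvatinib value lay just past the threshold, and fell short of it after each array was centred on its median or quantile normalised. Of 117 genes with a mean signal within 0.5 of that of Polr1c, none of the other genes was as far from control with lenvatinib in either direction. This place describes the difference for which Polr1c was picked out and is no measure of chance. Over all 15037 genes it ranked 41 by its rise with lenvatinib. Of the negative control features 16.1% were as far from control. Of the 1961 named genes at the background level 0.612% were 2-fold from control with lenvatinib in either direction. The mean signal of the erythroid markers had the same order of arrays as Polr1c, lowest in control and highest with lenvatinib, as did 4 of the 7 markers, Slc4a1, Epb42, Ahsp and Lgals5. Hbb and Alas2 were lowest with sorafenib and Hba-a1 was tied, and the part of these markers in the Polr1c result was not tested. The genes on each side of Polr1c within 1 kb on GRCr8 are Yipf3, at 9.11, 9.65 and 9.39 in control, sorafenib and lenvatinib, and Xpo5, at 11.09, 11.09 and 11.16. Neither neighbour showed the size of the lenvatinib difference of Polr1c. Polr1d read 8.13 in control and with sorafenib and 8.07 with lenvatinib, so that it did not follow its partner.

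Polr2e, Polr2f, Polr2h, Polr2k and Polr2l encode the subunits common to all nuclear polymerases. In each drug array 4 of the 5 were lower than control and 1, Polr2f, was tied, where 35.4% of all genes above the filter were lower with sorafenib and 35.8% with lenvatinib. With 5 genes such a count is a description only. Polr2e read 12.27, 12.12 and 12.14, and Polr2l read 9.18, 9.01 and 9.03. These are small steps, of at most 0.17, at signals above the background level. Polr2h read 6.10, 5.54 and 5.28, the furthest below control of all 67 genes with lenvatinib, at -0.82. Of 1647 genes of like signal, 2.19% were as far from control in either direction. Polr2k read 6.47 in the control array and 6.35 in both others. Both differences use the same control array, so that the shared direction is not evidence from separate controls.

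**Figure D1:**
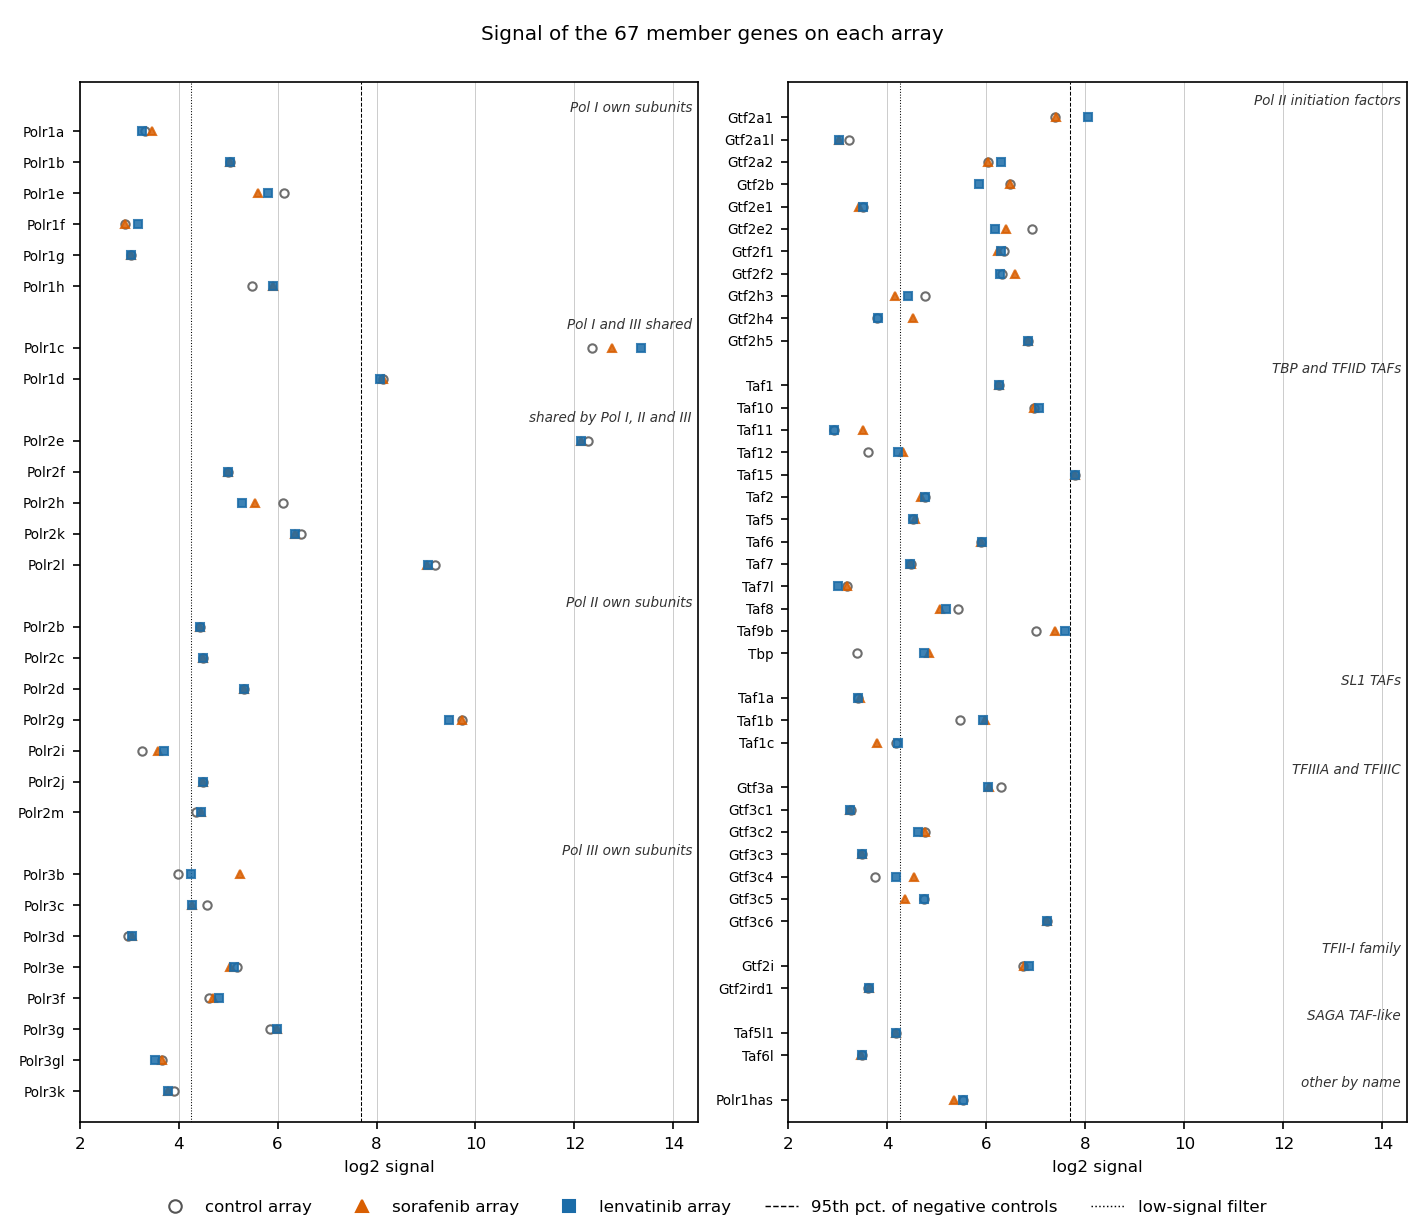
Log2 signal (x axis) of the 67 genes on the control, sorafenib and lenvatinib arrays, 1 array each, grouped by complex. The dotted line is the low-signal filter of 4.25 and the dashed line the background level of 7.69, which 6 genes reached by their mean, and most genes lie to its left on every array.

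Polymerase II has 7 genes here that it does not share, and Polr2a, its largest subunit, was not analysed here. Their signals were the most often tied: Polr2b, which forms the active site with Polr2a, Polr2c, Polr2d and Polr2j had exactly the same value on all 3 arrays. A tie in these summarised values does not show that the transcript was the same. Over the set 10 of the 46 genes above the filter were tied on all 3 arrays (21.7%), against 15.2% of all genes above the filter. Polr2g, which forms the stalk of the enzyme with Polr2d, was the only 1 of the 7 at the background level. It read 9.72 in control and with sorafenib and 9.47 with lenvatinib. Polr2m, an inhibitor that binds the polymerase and blocks initiation, read 4.36, 4.45 and 4.45, and Polr2i, below the filter, read 3.26, 3.57 and 3.71.

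Among the 6 genes of polymerase I alone, none reached the background level and 3 passed the filter. Polr1a, the catalytic largest subunit, lay below it at 3.31, 3.47 and 3.26. Polr1b, which completes the active site, read 5.04 on every array. Polr1e, a peripheral subunit, was lower with both drugs, at 6.14 in control, 5.60 and 5.81. Polr1h, a subunit for RNA cleavage, was higher with both, at 5.47, 5.90 and 5.90. Polr1f and Polr1g lay below the filter, Polr1g tied on all arrays. Polr1has carries a name that refers to Polr1h, but RefSeq places it on chromosome 9, overlapping Supt3h, and Polr1h on chromosome 20. It is annotated as protein coding and read 5.52, 5.35 and 5.52.

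Polymerase III has 8 genes of its own here, and Polr3a, its largest subunit, was not analysed here. Polr3b (gene ID 362858), the catalytic partner of Polr3a, read 3.998, 5.24 and 4.25. The sorafenib array thus stood above both others, at a difference of 1.24 from control and 0.99 from lenvatinib, and the lenvatinib array was 0.26 above control. All 3 signals lay below the background level, and the mean passed the filter through the sorafenib array. Of all 3518 genes with a mean within 0.5 of that of Polr3b, itself included and with no filter, 6 (0.171%) were as far from control with sorafenib in either direction. Of the negative control features 11.2% were. Differences of these features had an SD of 0.82, against 0.27 for genes above the filter and 0.25 for all named genes. No other polymerase III gene was 1.5-fold apart in any comparison. Polr3c, Polr3f and Polr3g, of the part that meets the initiation factors, read 4.56, 4.28 and 4.28, then 4.62, 4.69 and 4.82, then 5.86, 5.99 and 5.99. Polr3gl, the paralogue that replaces Polr3g in many tissues, lay below the filter, as did Polr3d and Polr3k, and Polr3e read 5.18, 5.05 and 5.11.

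Tbp (gene ID 117526) read 3.39, 4.83 and 4.75. Both drug arrays stood well above control and near each other, with differences of 1.45 and 1.36, and 0.08 between the drugs. Both comparisons share the control array. All 3 signals lay below the background level, and the control signal was below the filter, so that the gene passed through the arrays where it was high. All 3909 genes with a mean within 0.5 of its own were compared, with no filter and Tbp included. As far from control in either direction were 3 with sorafenib (0.0767%) and 4 with lenvatinib (0.102%). This place describes the difference for which Tbp was picked out and is no measure of chance. Of the negative controls 7.81% were as far with sorafenib and 9.54% with lenvatinib. Its gene overlaps Psmb1 on GRCr8, a proteasome subunit gene, which read 8.71, 9.12 and 8.89. That neighbour was also higher in both drug arrays, by much less, and whether its transcript adds to the Tbp signal was not tested.

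The Tbp-associated factors that form TFIID, the factor that first binds polymerase II promoters, were higher about as often as all genes were. With sorafenib 4 of the 12 were higher than control, 2 lower and 6 tied, and with lenvatinib 4, 3 and 5, where 34.9% and 35.4% of all 15037 genes were higher. Taf1, the largest of them, read 6.25 on all 3 arrays. Taf10, a subunit that TFIID shares with the coactivator SAGA, read 6.97 in control and with sorafenib and 7.06 with lenvatinib. Its gene overlaps Ilk, which read 18.09 on all 3 arrays, and whether that transcript adds to the Taf10 signal was not tested. Taf9b, a histone-fold subunit, read 7.00, 7.38 and 7.58, lowest in control and highest with lenvatinib, without reaching 1.5-fold. Taf9b has a close paralogue, Taf9, not analysed here, and whether its feature detects both was not tested. Taf15, an RNA-binding protein that also occurs with TFIID, read 7.78 on all 3 arrays and was the only member of the group at the background level. Taf12 read 3.61, 4.31 and 4.22 and Taf11 read 2.92, 3.51 and 2.92, both with means below the filter. Taf8, which helps assemble TFIID, was lower with both drugs at 5.42, 5.07 and 5.19, and Taf2, Taf5, Taf6 and Taf7 stayed within 0.08 of control. The Taf5 gene overlaps Atp5mk, which read 9.37, 9.25 and 9.20, and its part in the Taf5 signal was not tested. Of the TAFs of SL1, the Tbp complex for polymerase I, Taf1b read 5.46, 5.97 and 5.94, and Taf1c, below the filter, read 4.18, 3.80 and 4.22. Taf1a and the germ cell paralogue Taf7l also lay below it. Taf5l1 and Taf6l, which belong to SAGA, did so too, at 4.18 on every array and at 3.49, 3.46 and 3.49.

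**Figure D2:**
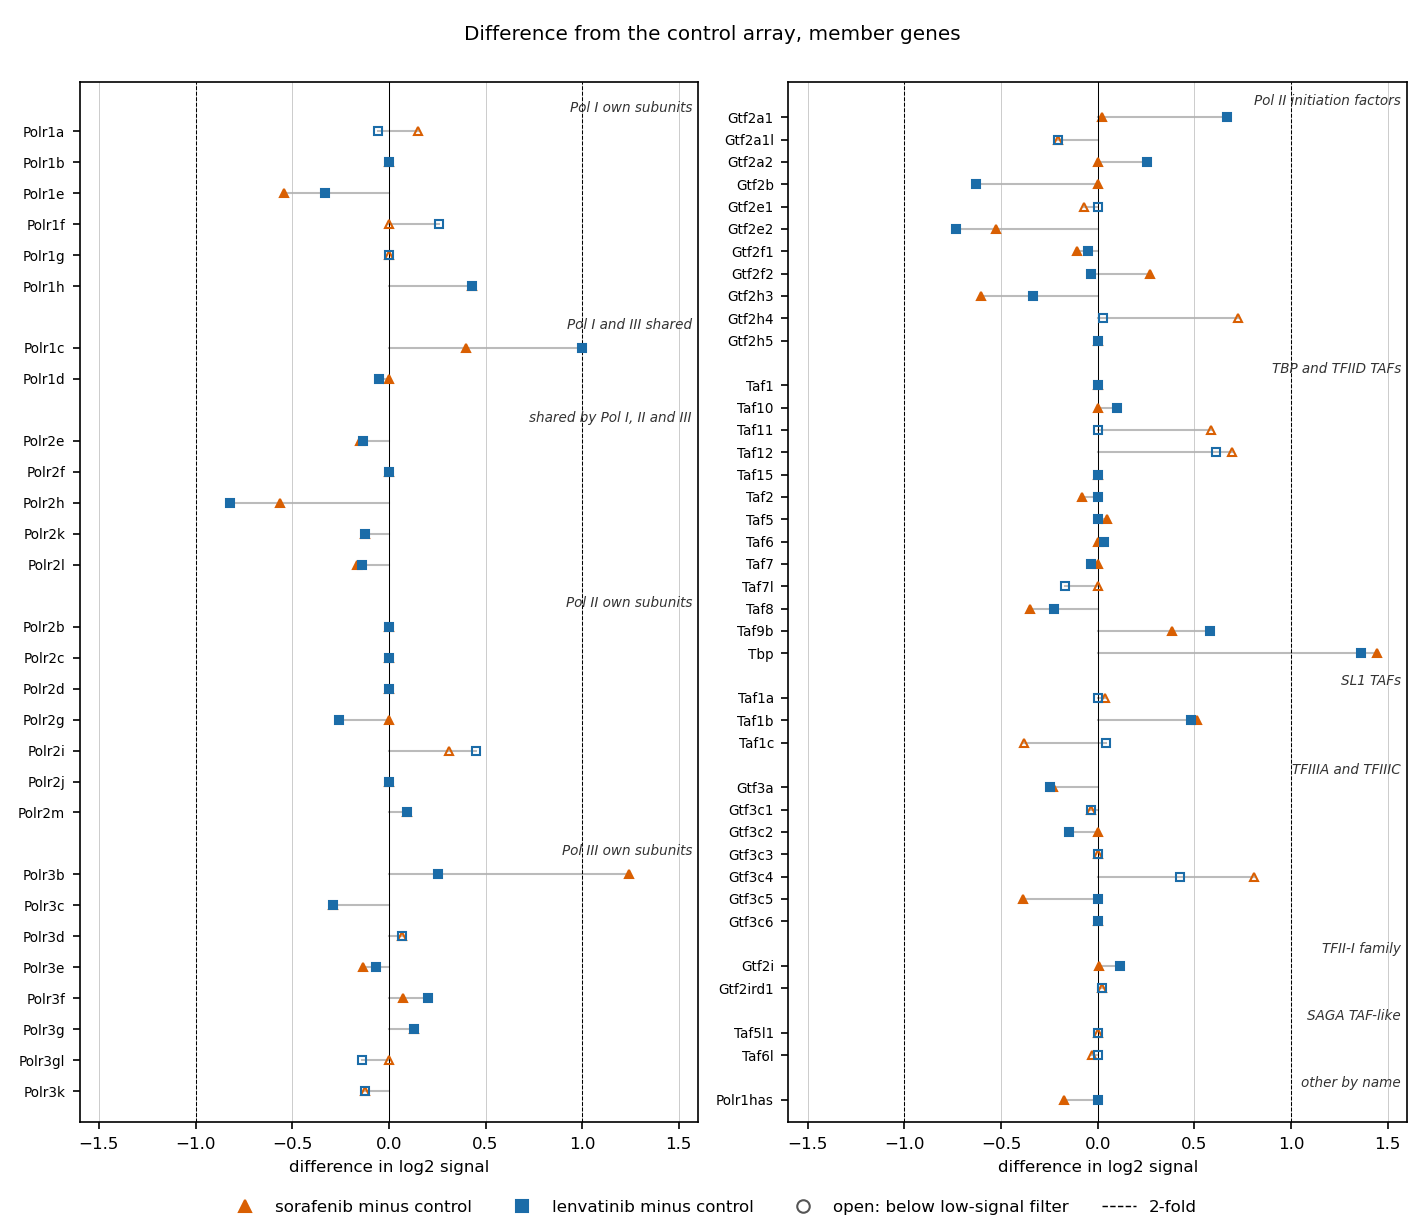
Difference in log2 signal from the control array (x axis) for each of the 67 genes, sorafenib as triangles and lenvatinib as squares, with open symbols below the low-signal filter. Tbp stands past 2-fold (dashed lines) in both drug arrays, Polr3b with sorafenib alone, and Polr1c lies on the line with lenvatinib.

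The other initiation factors of polymerase II held the members above the filter that separated the drugs most after Polr3b. None of these factors reached the background level by its mean. Of the negative control features 29.9% were as far apart between the drugs as Gtf2a1 and 31.0% as Gtf2b. As far from control as Gtf2e2 with lenvatinib were 27.1% of them, and as Gtf2h3 with sorafenib 35.6%. Gtf2a1, the larger TFIIA chain, which steadies Tbp on DNA, read 7.38, 7.40 and 8.05. Gtf2b, which links Tbp to the polymerase, read 6.48 in control and with sorafenib and 5.85 with lenvatinib. In both genes the lenvatinib array was the one apart, above the others for Gtf2a1 and below them for Gtf2b. Gtf2e2, a chain of TFIIE, which recruits TFIIH, was below control in both drug arrays, at 6.91, 6.39 and 6.18. Gtf2h3, of the TFIIH core, read 4.76, 4.15 and 4.42, lowest with sorafenib. Its gene overlaps Eif2b1, which read 7.02, 7.28 and 6.53, in another order. Gtf2h4, another TFIIH core subunit, read 3.79, 4.51 and 3.81, with a mean below the filter, and Gtf2h5 was tied at 6.84. Gtf2a2, the small TFIIA chain, read 6.04, 6.04 and 6.30. The TFIIF chains Gtf2f1 and Gtf2f2 read 6.35, 6.24 and 6.30, and 6.32, 6.59 and 6.28, all within 0.31 of each other for each gene. Gtf2e1 and the germ cell paralogue Gtf2a1l lay below the filter. Gtf2i, the multifunctional factor TFII-I, read 6.74, 6.75 and 6.86, and its relative Gtf2ird1, below the filter, read 3.61, 3.63 and 3.63.

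For polymerase III, Gtf3a, which binds 5S ribosomal RNA genes, was slightly lower with both drugs, at 6.29, 6.05 and 6.04. TFIIIC, which binds the internal promoters of transfer RNA genes, has 6 genes in the set. Gtf3c6 was tied at 7.23. Gtf3c4 was above control with each drug, at 3.74, 4.55 and 4.16, but with a mean below the filter. Gtf3c2 read 4.76, 4.76 and 4.61 and Gtf3c5 read 4.74, 4.35 and 4.74. Gtf3c1 and Gtf3c3 lay below the filter.

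Over the 46 genes above the filter, 2 were at least 2-fold above control with sorafenib, Polr3b and Tbp (4.35%), and 0 below. Of all genes above the filter 0.306% were above and 0.279% below, or 0.585% in either direction. With lenvatinib 2 were above, Tbp and Polr1c, and 0 below, against 0.386% and 0.266% of all genes, or 0.652% in all. Between the drugs 0 were 2-fold apart, against 0.386% of all genes, 0.16% higher with sorafenib and 0.226% lower. Tbp and Polr3b lay below the filter in control and passed it through the arrays where they were high, so that their share above the filter is no support for a difference of the set. With no filter 2 of 67 genes (2.99%) were 2-fold apart with each drug, against 0.512% of all genes with sorafenib and 0.539% with lenvatinib. At 1.5-fold 3 genes (6.52%) were apart with sorafenib, against 5.28% of all genes above the filter. With lenvatinib 6 were (13.0%, against 6.29%), and between the drugs 4 (8.70%, against 4.60%). With sorafenib Tbp and Polr3b were above control at 1.5-fold (2.71% of all genes were) and Gtf2h3 below (2.57%). The 6 with lenvatinib were Tbp, Polr1c and Gtf2a1 above control (3.44% of all genes) and Polr2h, Gtf2e2 and Gtf2b below (2.85%). Between the drugs Polr3b and Gtf2b were higher with sorafenib (2.25%), and Gtf2a1 and Polr1c higher with lenvatinib (2.35%). Of the 21 genes below the filter, none was 2-fold apart in any comparison. At 1.5-fold Gtf2h4, Gtf3c4 and Taf12 were above control with sorafenib, Taf12 was above it with lenvatinib, and Gtf2h4 was higher with sorafenib than with lenvatinib. With no filter 6 of the 67 genes (8.96%) were 1.5-fold apart with sorafenib, against 4.43% of all genes. With lenvatinib 7 were (10.4%, against 5.05%), and between the drugs 5 (7.46%, against 3.89%). The filter level separated Taf5l1, at a mean of 4.18 just below it, from Tbp, at a mean of 4.32 just above it.

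**Figure D3:**
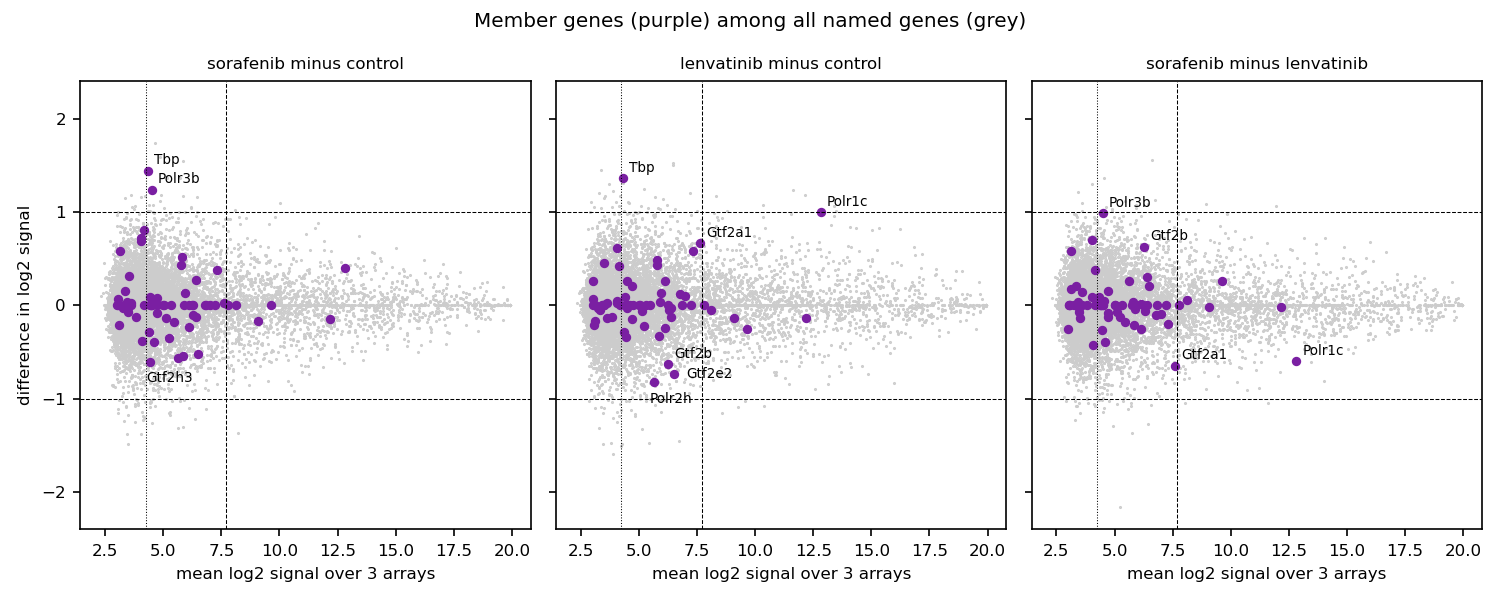
Difference in log2 signal (y axis) against mean log2 signal over the 3 arrays (x axis) for the 67 genes in purple and all 15037 named genes in grey, 1 panel per comparison, with the filter dotted, the background level and 2-fold dashed. Tbp and Polr3b lie just right of the filter, and Polr1c, at a mean of 12.82, lies apart from genes of like signal with lenvatinib.

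As a whole the set did not shift. Its median difference was 0 in each comparison, as was that of all genes above the filter. With sorafenib 14 of the 46 were higher than control (36.4% of all genes were), 15 lower (35.4%) and 17 tied (28.1%). With lenvatinib 14 were higher (37.8% of all genes), 18 lower (35.8%) and 14 tied (26.4%). Between the drugs 13 were higher with sorafenib (33.6% of all genes), 18 lower (36.8%) and 15 tied (29.6%). Centring each array on its median turns ties into small differences, and the split then became 13 higher and 33 lower with sorafenib, 14 and 32 with lenvatinib, and 28 and 18 between the drugs. In each comparison all ties of any gene go the same way. That way is set by the array medians, 4.2114 in control, 4.2161 with sorafenib and 4.2178 with lenvatinib. The centred split was not counted over all genes, so it shows no shift of the set.

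**Figure D4:**
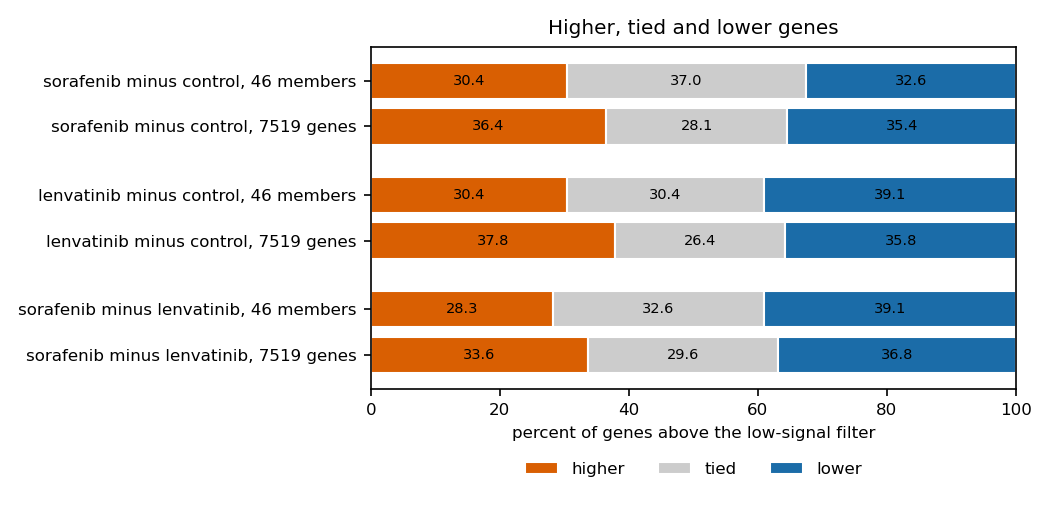
Percent of genes higher, tied and lower (x axis) in each comparison for the 46 genes of the set above the low-signal filter and for all 7519 genes above it. The 46 genes had more ties than all genes in each comparison, and neither direction dominated.

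Partners of the same machinery that the symbols do not take in were listed too: 100 genes of TFIIH, TFIIIB, polymerase I factors, relatives of Tbp, Mediator, elongation, mitochondrial transcription and SAGA. Of these 80 were measured, 60 passed the filter and 12 reached the background level. None was 2-fold apart among the 60 in any comparison. Of all genes above the filter 0.585% were with sorafenib, 0.652% with lenvatinib and 0.386% between the drugs. At such shares 0 of 60 is no contrast with the set. At 1.5-fold there were 1 above and 1 below control with sorafenib, and 3 above and 1 below with lenvatinib. These are 3.33% and 6.67% of the 60, near the 5.28% and 6.29% of all genes above the filter. Between the drugs 2 were higher with sorafenib at 1.5-fold and 1 with lenvatinib (5.00%, against 4.60% of all genes). Med8, of Mediator, which bridges activators and polymerase II, read 5.68, 4.89 and 4.97, lower with both drugs. Ssrp1, of the histone chaperone FACT, read 3.86, 4.51 and 4.57, higher with both. Its control signal lay below the filter, so that it passed, and was counted, through the arrays where it was high. Med16 read 4.48, 4.77 and 5.14 and the elongation factor gene Ell read 7.09, 7.46 and 7.72, both highest with lenvatinib. Med10, at 7.18, 7.38 and 6.75, and Med12, at 4.74, 5.13 and 4.49, were lowest with lenvatinib, and Snapc5, of the factor for small nuclear RNA genes, was highest with it at 6.25, 6.05 and 6.66. Each of these partner genes, from Med8 to Snapc5, had a mean signal below the background level. Tbpl1, the relative of Tbp that lacks its role at TATA boxes, read 9.04, 9.22 and 9.04. Its signal thus lay above the background level and stayed within 0.18 of control, unlike that of Tbp. Maf1, the repressor of polymerase III, read 10.91, 10.89 and 10.47.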

How the data were processed

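Total RNA of pooled platelets of 5 rats per group was measured on 3 arrays, 1 for each group. The deposited matrix holds 23188 features in log2 signal units, from 2.24 to a shared ceiling of 19.93. The unit was read from the values, and the authors' background correction, summary and normalization are not given in the sources used here. GEO's series value table, also log2 and deposited, holds 1646 more features, all controls, and differs by at most 5e-05 on shared features.

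Gene symbols came from the platform annotation: 15049 features had 1 symbol, 0 several and 8139 none. All 67 members matched the RefSeq gene table of GRCr8 by gene ID. The highest-mean feature was kept per gene. Each difference subtracts the log2 signal of the array named second, and differences are described by counts and medians with no test, since each group has 1 array. A tie means equal deposited values. Promoter orientation was checked on 1407 overlapping windows of opposite strands, of which 1407 matched. The number of arrays limits the precision. Members were described by complex. All were open to naming, with values for those 1.5-fold apart above the filter and for catalytic subunits, and for up to 4 genes of each partner list that were 1.5-fold apart. Tbpl1 and Maf1 were named after their values were seen. The members and lists were chosen with earlier results of these data known. Alternatives were other filters, thresholds, scalings, feature rules and the value table. Steps were tested on simulated arrays. Python 3.11.15, pandas 2.3.3 and numpy 2.4.6 were used.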

Additional observations from a re-analysis of the deposited data

How the results depend on the processing

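The series value table and averaging the features of each gene gave the same counts and medians as reported. Neither is a check on the results. Each member has 1 feature, and the value table differs from the matrix by at most 5e-05. The medians of the set moved by less than 0.1 under every alternative run. With no low-signal filter, 67 genes gave 23 higher with sorafenib than control, 22 higher with lenvatinib and 21 higher with sorafenib than with lenvatinib. Over the 6 genes at the background level, 0 were 2-fold apart with sorafenib, with 2 higher and 2 lower, 1 (Polr1c) was 2-fold apart with lenvatinib, with 1 higher and 4 lower, and between the drugs 2 were higher and 3 lower. Tbp and Polr3b, with means below the background level, were left out, so that Polr1c was the only gene still 2-fold apart. The counts of higher and lower genes are smaller because fewer genes were tested. Of all 1961 genes at the background level 0.153% were 2-fold apart with sorafenib, 0.612% with lenvatinib and 0.204% between the drugs. Centring left 1 gene 2-fold from control with lenvatinib, as did quantile normalization, since Polr1c fell below the threshold. Centring turned ties into differences and gave 33 lower with sorafenib and 32 lower with lenvatinib than control, and 28 higher with sorafenib than with lenvatinib. The array medians send all ties of a comparison the same way, and this split was not counted over all genes. Quantile normalization gave 23 higher with sorafenib than control and 23 higher than with lenvatinib. At 1.5-fold the counts were 6 with lenvatinib and 4 between the drugs, and at 3-fold 0 with sorafenib and 0 with lenvatinib. No paired analysis was possible because each group has 1 array, and no array could be left out. Most of the set lay below the background level, which limits what its signals can show.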
